A study of Mus musculus with 3 samples.

Results

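The genes described here are 9 genes of retinoic acid uptake, synthesis, carriage, reception and breakdown: Stra6, Rdh10, Aldh1a2, Crabp1, Crabp2, Rara, Rarb, Rarg and Cyp26a1. They were taken by gene name from the scanner files, in which 12 of 39429 probes carry one of these names, and all 9 are among the 15426 genes tested. RNA came from Dido3deltaCT embryoid bodies, whose Dido3 protein lacks its C-terminal part, and from wild type control embryoid bodies, with 3 samples of each genotype at day 10. Embryoid bodies are aggregates in which embryonic stem cells differentiate, and both genotypes grew in suspension with LIF, the factor that holds such cells in self-renewal, left out. Each of 3 arrays compared 1 mutant with 1 wild type sample in 2 colours, and mutant RNA was the Cy3 channel of replicates 1 and 3 but the Cy5 channel of replicate 2. The labels call the samples biological replicates but do not say whether they come from separate cell lines, so p-values measure the spread between these samples. If each genotype is 1 line, its effect and that of the line cannot be told apart.

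Retinoic acid is made from vitamin A (retinol) in 2 oxidation steps and acts by binding nuclear receptors on DNA. Retinol travels in blood on the carrier Rbp4 and enters cells through the membrane receptor Stra6. Rdh10 oxidises it to retinaldehyde and Aldh1a2 oxidises that to retinoic acid. Inside the cell the binding proteins Crabp1 and Crabp2 carry the acid, Crabp2 towards the nucleus. The receptors Rara, Rarb and Rarg pair with retinoid X receptors (Rxr), and the cytochrome P450 enzyme Cyp26a1 breaks the acid down. In embryos and embryoid bodies the pathway is known for patterning the body axis and for turning stem cells towards neural and endodermal fates, and Rarb, Cyp26a1, Crabp2 and Stra6 are themselves known retinoic acid targets.

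The receptors bind a direct repeat of a 6-base half-site, and the classic element has 5 bases between the repeats. Of the 9 genes, 7 had 14 promoters in the RefSeq table of GRCm38.p6, each reaching from 250 bases before an annotated start to 50 after it. Half-sites (AGGTCA, its variant AGTTCA, its variant GGGTCA or its variant GGTTCA) were searched as a direct repeat with any 5 bases in between, on both strands, with overlapping matches allowed. The repeat was present in 32 of 32851 promoters (0.0974%), and 2 of these promoters belong to the genes described here, Rarb and Cyp26a1. Crabp2 and Rdh10 had no entry in the table. Both matches are shown because, of the 7 genes searched, these carry the element in the window, each read 5′ to 3′ on the minus strand of the chromosome with the half-sites in capitals and 6 bases on each side.
Rarb: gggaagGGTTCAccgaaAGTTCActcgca
Cyp26a1: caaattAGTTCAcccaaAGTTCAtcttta
The first lies at chr14:16575507-16575535, on the gene's own strand, with the element from 53 to 37 bases before the start. The second lies at chr19:37697770-37697798, on the strand opposite to the gene, with the element from 32 to 16 bases before the start. Counted from 1 at the 5′ end of the element, the 17 bases differ by 2 substitutions, Rarb first, G1A in a half-site and G9C in the spacer. The Rarb element sits in the following 100 bases before the start (chr14:16575477-16575576, minus strand), here with the whole element in capitals.
Rarb promoter: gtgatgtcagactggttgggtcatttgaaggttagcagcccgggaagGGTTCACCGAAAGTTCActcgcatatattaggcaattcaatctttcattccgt
The same half-sites spaced by 1 base were in 0.222% of promoters and spaced by 2 bases in 0.268%, and neither repeat was in a promoter of the 7 genes. Of the 31 genes with the 5-base repeat in a promoter, 5 were among the genes tested. Whether the others have a probe on the array was not checked. The log2 ratios of mutant over wild type of these 5 were −2.78 for Hbb-y, an embryonic globin, −2.27 for Rarb, −0.66 for Cyp26a1, 0.80 for Cfap45 and 0.95 for Blvrb. In the test described next 0 of the 5 passed, against 0.298% of all genes tested. At an unadjusted p under 0.05 there were 3 (Hbb-y, Rarb and Cfap45), against 22.7% of all genes. A match is a string of letters and does not show binding.

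Values are normalised spot intensities in arbitrary units and log2 ratios of mutant over wild type within an array. A mean ratio carries the SE of a limma fit across 15426 genes and 3 arrays, with p-values adjusted over all genes by Benjamini-Hochberg and a threshold of 0.05. In that fit 32 genes were higher in the mutant (0.207% of those tested) and 14 lower (0.0908%). Between 46.5% and 62.5% of spots were well above background in mutant RNA and between 48.5% and 74.4% in wild type RNA. Ratios of replicates 1 and 3 correlated at 0.879 over genes, while replicate 2, with the opposite dyes, correlated with them at 0.151 and 0.180, and dye and replicate cannot be told apart for that array. Dido1, the targeted gene, has 4 probes: 2 had mean log2 ratios of 1.74 and 1.12, 1 had −1.92, and 1, not well above background on any wild type array, had at least a 2.17-fold higher level in mutant RNA. Since no label says which exons the deletion spans, they do not check the genotype labels. Where a gene has several probes, the brightest one that passed the filter on dim spots stands for it.

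Of the 9 genes, 5 had lower intensity in mutant than in wild type RNA on every array (Stra6, Rarb, Crabp2, Crabp1 and Rdh10), 2 had higher intensity on every array (Rarg and Rara), and Aldh1a2 and Cyp26a1 were mixed. None of the 9 passed the adjusted threshold either way, against 0.298% of all genes tested. At an unadjusted p under 0.05 there were 5 lower and 1 higher, against 11.3% and 11.4% of all genes, and 4 of the 9 had an adjusted p under 0.1, against 8.03%. The sign was the same on all arrays for 7 of the 9, against 44.3% of all genes. The mean was at least 2-fold lower for 5 of the 9, against 7.12% of all genes, and at least 2-fold higher for 1, against 9.56%. The 3 mutant intensities all lay below the 3 wild type ones for 4 of the 9 and all above for 1, against 10.3% and 11% of all genes (21.3% either way). The median log2 ratio of the 9 genes was −1.02, against 0.03 over all genes, and the array medians of the 9 were −1.74, −0.43 and −0.95. Replicate 2 had the smallest fold for every gene that was lower on all arrays.

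**Figure D1:**
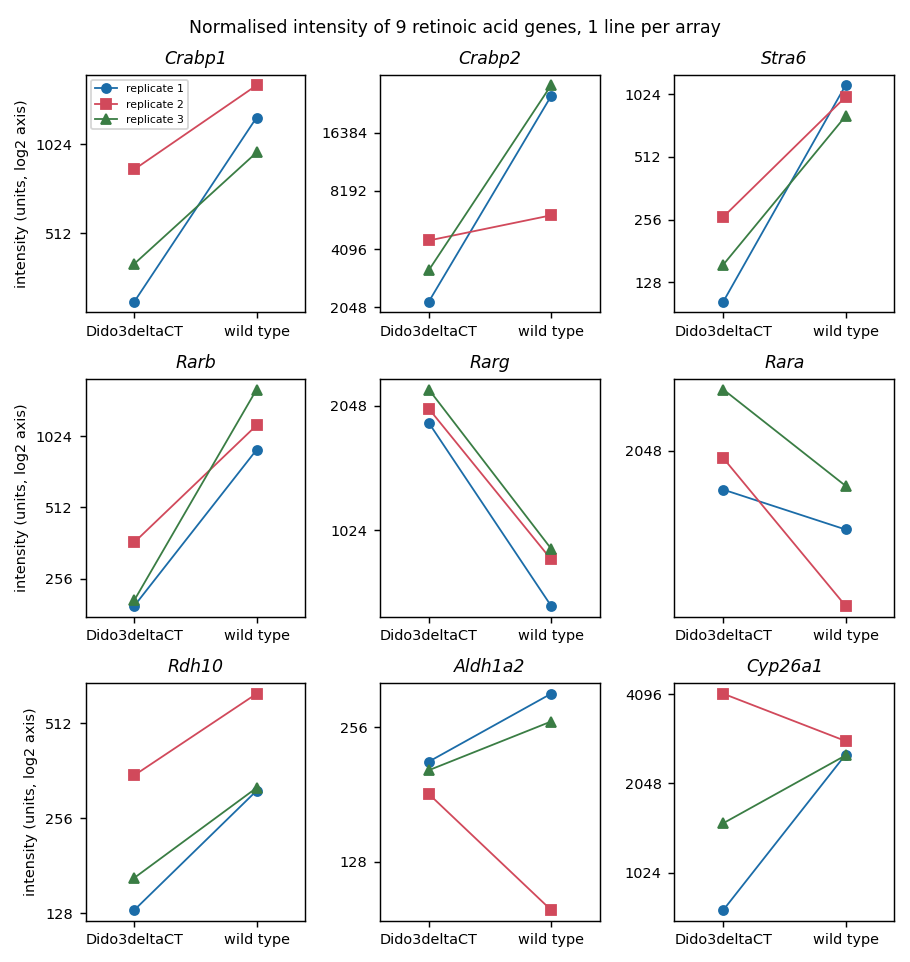
Normalised spot intensity (arbitrary units, log2 axis, a separate scale in each panel) of the 9 genes in Dido3deltaCT and wild type embryoid bodies, with 1 line joining the 2 samples of each array. Lines climb towards the wild type on every array for Crabp1, Crabp2, Stra6, Rarb and Rdh10, drop for Rarg and Rara, and are mixed for Aldh1a2 and Cyp26a1, where replicate 2 runs the other way.

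Stra6, the retinol receptor of the cell membrane, had the largest mean difference of the 9. Its probe (NM_001162476; mm9 chromosome 9, 58001701 to 58001760) read 103.5, 264 and 156 units in mutant replicates 1, 2 and 3, against 1128, 992 and 802 units in the wild type samples of the same arrays. The groups did not overlap, and the highest mutant sample was replicate 2. The mean log2 ratio was −2.57 ± 0.37, a 5.96-fold lower level in the mutant (limma adjusted p = 0.0559). Folds ranged from 3.76 on replicate 2 to 10.9 on replicate 1, and in mutant RNA the probe passed background on 2 of 3 arrays, so the size of the difference rests partly on dim spots.

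Rdh10, which makes retinaldehyde, differed less. Its probe (NM_133832; chromosome 1, 16122062 to 16122121) read 131, 350.4 and 166 units in the mutant, against 313, 635 and 319.5 units in the wild type. Within each array the mutant sample was the lower one, but across arrays the groups overlapped, because both samples of replicate 2 were brighter than their counterparts. The log2 ratio was −1.02 ± 0.24, 2.03-fold lower (limma adjusted p = 0.101), with array values between −1.25 and −0.86, the narrowest spread among the genes that were lower on all arrays. In mutant RNA it too passed background on 2 of 3 arrays.

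Aldh1a2, the main retinoic acid-forming enzyme of the early embryo, had no common direction. The probe (NM_009022; chromosome 9, 71143931 to 71143990) read 214, 181 and 205 units in the mutant, against 304, 99.8 and 263 units in the wild type. The mutant samples lay close together, and the wild type of replicate 2 was the lowest of the 6 samples and not well above background. The log2 ratios were −0.50, 0.86 and −0.36, with a mean of −0.0015 ± 0.36 (limma adjusted p = 0.999). With replicate 2 left out the mean was −0.43 (adjusted p = 0.101).

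The carriers Crabp1 and Crabp2 were both lower in mutant RNA on all arrays. Crabp1 (NM_013496; chromosome 9, 54616192 to 54616251) read 300.2, 843 and 403 units in the mutant, against 1262, 1623 and 961 units in the wild type. The groups did not overlap. The log2 ratio was −1.42 ± 0.31, 2.68-fold lower (limma adjusted p = 0.0888). Crabp2 (NM_007759; chromosome 3, 87757207 to 87757266) read 2194, 4538 and 3190.3 units in the mutant, against 25274, 6121 and 28749 units in the wild type. The 2 high wild type samples are those of replicates 1 and 3, and the wild type of replicate 2 stood only 1.35-fold above its mutant partner. Ratios were thus −3.53, −0.43 and −3.17, and the mean of −2.38 ± 0.66 did not pass (limma adjusted p = 0.127). Without replicate 2 the mean was −3.35 and passed (adjusted p = 0.000958), in a fit that called 47.4% of all genes and in which genotype and dye cannot be told apart. Crabp2 minus Crabp1, as a difference of log2 ratios, was −1.45, 0.51 and −1.92 on the 3 arrays, so neither carrier had the larger difference throughout.

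The 3 receptor genes had ratios of different sign. Rarb, the receptor whose promoter element is shown above, read 196, 365 and 207 units in the mutant with its brightest probe (NM_011243; chromosome 14, 17263367 to 17263426, minus strand), against 897, 1139 and 1614 units in the wild type. The groups did not overlap, and the mutant sample of replicate 2 was again the highest of its genotype. The log2 ratio was −2.27 ± 0.33, 4.81-fold lower (limma adjusted p = 0.0563), and in mutant RNA the probe passed background on 2 of 3 arrays. A second Rarb probe of the same transcript (17264648 to 17264707) was too dim to test: it read 76.8, 82.3 and 91.8 units in the mutant, where no array had it well above background, against 149, 127 and 152 units in the wild type, above background on 2 arrays. It was at least 1.48-fold lower in the mutant. This bound sets the wild type mean against the higher of the mutant reading and the lowest reading well above background on each array, and with dyes swapped unequally it is open to dye bias. The third probe (X56569; 17651424 to 17651483) was not well above background in either genotype and gives no direction.

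Rarg was higher in the mutant with the most even ratios of the 9 genes. Its probe (NM_011244; chromosome 15, 102065371 to 102065430, minus strand) read 1862, 2015 and 2243 units in the mutant, against 672, 870.3 and 924 units in the wild type. The groups did not overlap, and every sample was well above background. The log2 ratio was 1.32 ± 0.24, 2.50-fold higher (limma adjusted p = 0.0677), with array values between 1.21 and 1.47. Rara gave 1833, 2005 and 2437 units in the mutant, against 1636, 1317 and 1853 units in the wild type, with its brighter probe (NM_001177302; chromosome 11, 98836197 to 98836256). These groups overlapped, and the log2 ratio of 0.39 ± 0.24 did not pass (limma adjusted p = 0.404), though it was above 0 on all 3 arrays. The other Rara probe (98835350 to 98835409) averaged 0.28 ± 0.15 (SD, n = 3), above 0 on all arrays like the first. The log2 ratio of Rarb minus that of Rarg was −3.66, −2.85 and −4.24 on the 3 arrays, a mean of −3.59 ± 0.70 (SD, n = 3), and that of Rarg minus Rara was 1.31, 0.60 and 0.88. That the difference between Rarb and Rarg had the same sign on each array follows from their own signs, so it adds no further result. A constant shift of a whole array cancels in these differences, but a correction that varies with intensity, such as loess, need not.

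**Figure D2:**
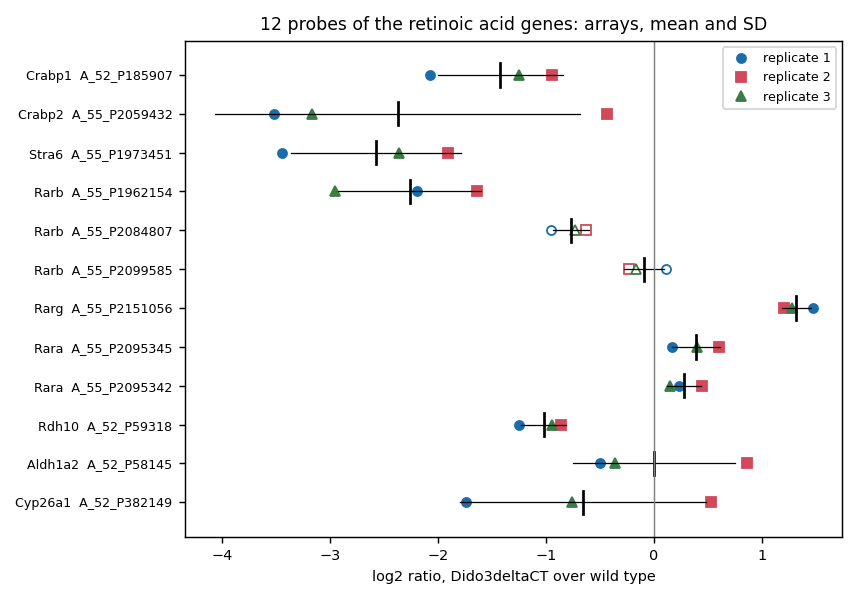
Log2 ratio of Dido3deltaCT over wild type for each of the 12 probes, with 1 symbol per array, the mean as a vertical bar and the SD as a horizontal line; open symbols are probes that did not pass the filter on dim spots. Rarg lies between 1.21 and 1.47 on all arrays, Stra6 and the bright Rarb probe lie below −1.6, and Crabp2, Aldh1a2 and Cyp26a1 have replicate 2 far from the other arrays.

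Cyp26a1, the breakdown enzyme and the other gene with the promoter element, did not follow Rarb on every array. It read 767, 4107 and 1503 units in the mutant (NM_007811; chromosome 19, 37775566 to 37775625), against 2559, 2846 and 2545 units in the wild type. The wild type samples were nearly level, while the mutant samples were far apart, with the highest on replicate 2. Ratios were −1.74, 0.53 and −0.76, and the mean of −0.66 ± 0.47 was not distinguishable from 0 (limma adjusted p = 0.464). Without replicate 2 it was −1.25 (adjusted p = 0.0178), again with genotype and dye inseparable.

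Bulk RNA cannot tell fewer cells of a type from less RNA per cell, and markers of several cell types differed between the genotypes. Over all genes tested, 22.7% were lower on every array, 21.7% were higher on every array, and 0.298% passed the adjusted threshold either way. All 10 parietal endoderm markers were lower in the mutant on every array, with a median log2 ratio of −3.04 and a summed intensity of 17364 to 153292 units in mutant samples, against 279664 to 593326 units in wild type samples. Of 10 visceral endoderm markers 9 were lower on every array, with a median of −1.87 and sums of 14239 to 85081 units in mutant samples, against 62733 to 340466 units in wild type samples. Of these 10, only Rbp4 passed, with values given below. Of 10 pluripotency markers 8 were higher on every array, with a median of 2.38 and sums of 183111 to 399155 units in mutant samples, against 37456 to 69485 units in wild type samples. Their means ran from 0.08 for Nanog to 3.17 for Zfp42. Of them 2 passed, Zfp42 and Dppa5a, the latter with 2.67 (limma adjusted p = 0.0417 for each). Of 10 neural markers 8 were tested, and Neurod1 and Pax6 were too dim. Over the arrays 3 were lower, 1 higher and 4 mixed, with array medians of −1.45, 0.09 and −2.84. The median of the 8 was −1.02, from −5.41 for Zic1 to 0.41 for Otx2. Of 10 neural crest markers 7 were tested, 6 lower and 1 higher on every array, with Erbb3, Sox10 and Tfap2b too dim. Paraxial and somitic mesoderm markers were mixed, with 3 lower and 2 higher on every array of 6 tested and a median of −0.43, from −2.03 for Pax3 to 1.74 for Tcf15. Cardiac mesoderm markers had 4 lower and 1 higher on every array of 9 tested and a median of −0.44, from −2.25 for Myh7 to 1.81 for Myh6. Blood and endothelium markers had 5 lower and 2 higher on every array of 9 tested and a median of −0.61, from −3.91 for Hbb-bh1 to 0.72 for Gata1. The embryonic globin gene Hbb-bh1 was the only 1 of these 9 that passed. The part of these cell types in the retinoic acid ratios was not tested.

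Of 44 other retinoid genes, chosen for their roles but with earlier results of these data known, 29 were tested. The retinol carrier Rbp4 fell and was the only one that passed, and 0 rose, beside 0.298% of all genes. At an unadjusted p under 0.05 there were 6 lower and 2 higher of the 29, against 11.3% and 11.4% of all genes. The median log2 ratio was −0.38, against 0.03 over all genes, with array medians of −0.30, 0.11 and −0.45. Rbp4 read 2065, 25645 and 2523 units in the mutant, against 16464, 138150 and 15763 units in the wild type. Both samples of replicate 2 were far brighter than the rest, so the groups overlap across arrays although the mutant was the lower within each. Its log2 ratio was −2.69 ± 0.25, 6.45-fold lower (limma adjusted p = 0.0432), and the adjusted p ran from 0.00120 to 0.272 over 14 alternatives, of which 6 kept it under the threshold. It did not pass without replicate 1 or without replicate 3. It is also one of the 10 visceral endoderm markers. Ttr, which carries Rbp4 in blood and is a visceral endoderm marker as well, had −1.93 ± 0.29 (adjusted p = 0.0574).

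Among the pathway genes that did not pass, those of smallest adjusted p below 0 after Ttr were Zfp423, a zinc finger cofactor of the receptors, with −1.63 ± 0.32, the retinaldehyde reductases Rdh11, with −0.81 ± 0.26, and Dhrs3, with −0.72 ± 0.25, and Rxra, with −0.75 ± 0.26, whose mutant signal passed background on 1 array. The second tested Zfp423 probe gave −0.70 ± 0.15 (SD, n = 3). Another Rxra probe did not pass the filter on dim spots and did not share the direction on all arrays. It had ratios of −0.19, 0.28 and −0.31, a mean of −0.07, and was well above background on 2 arrays in each genotype. Above 0 they were the retinol-binding protein gene Rbp7, with 1.62 ± 0.26 (limma adjusted p = 0.0600), the alcohol dehydrogenase gene Adh1, with 0.84 ± 0.26, Rdh12, with 0.41 ± 0.26, the coactivator gene Ncoa3, with 0.36 ± 0.23, and Aldh8a1, with 0.35 ± 0.23. The wild type signal of Rbp7 and of Adh1 passed background on 2 of 3 arrays. Other enzymes of the pathway were not tested: the acid-forming Aldh1a1 and the breakdown enzymes Cyp26b1 and Cyp26c1 did not pass the filter on dim spots. Another acid-forming enzyme, Aldh1a3, chosen for mention after its values were seen, had ratios of 0.009, −0.51 and −3.53, so its mean of −1.34 ± 0.73 rests on replicate 3.

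**Figure D3:**
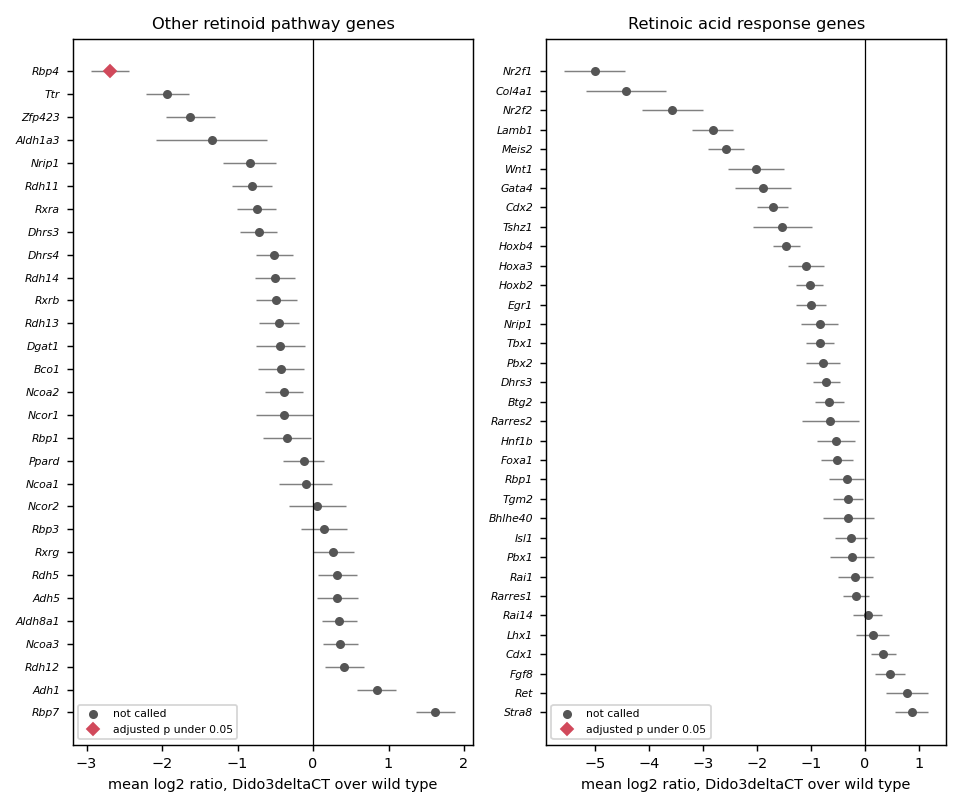
Mean log2 ratio of Dido3deltaCT over wild type (3 arrays), with limma's SE, for 29 other retinoid pathway genes (left) and for tested retinoic acid response genes (right), sorted by ratio. Rbp4, drawn as a diamond, is the gene past the adjusted threshold; most response genes drawn lie below 0, and Nr2f1 is the lowest.

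Of 50 genes listed as responding to retinoic acid, 35 were tested and 0 passed, beside 0.298% of all genes, with 16 lower and 1 higher at an unadjusted p under 0.05, where 11.3% and 11.4% of all genes stood. On all arrays 20 were lower and 3 higher, against 22.7% and 21.7% of all genes. The median log2 ratio was −0.72, with array medians of −0.94, −0.37 and −0.82. The orphan nuclear receptor gene Nr2f1 had ratios of −5.40, −3.44 and −6.18 (32.1-fold lower in the mean, SE 0.56, limma adjusted p = 0.0502), from 203, 291 and 244 units in the mutant, against 8547, 3149 and 17719 units in the wild type. Those groups were far apart, and its second tested probe gave −2.91 ± 1.35 (SD, n = 3). The related Nr2f2 had −3.57 ± 0.56, with mutant signal past background on 2 of 3 arrays. The homeobox gene Meis2 had −2.57 ± 0.32 (adjusted p = 0.0543). Lamb1, with −2.82 ± 0.38, and Col4a1, with −4.43 ± 0.74, encode basement membrane proteins and are parietal endoderm markers as well. The smallest adjusted p above 0 were those of Stra8, a germ cell gene named for its response to retinoic acid, with 0.87 ± 0.30, Ret with 0.78 ± 0.39, Fgf8 with 0.47 ± 0.28, Cdx1 with 0.34 ± 0.23 and Lhx1 with 0.14 ± 0.31, and none had a limma adjusted p below 0.186. The body axis patterning genes Hoxb4, with −1.45 ± 0.25, Hoxa3, with −1.10 ± 0.33, and Hoxb2, with −1.02 ± 0.25, were chosen for mention after their values were seen and were below 0 on every array. In mutant RNA Hoxa3 passed background on 2 arrays and Hoxb2 on 1. Hoxa2, Hoxa4, Hoxa5, Hoxb1, Hoxb3, Hoxb5 and Hoxd4, also on the list, did not pass the filter on dim spots and were not tested.

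The genes with the array pattern nearest to Stra6, the gene of smallest p among those below 0, were Flrt3, Cryab and Gata6, at Euclidean distances of 0.246, 0.356 and 0.419 between log2 ratios over 3 arrays, among 15425 genes. Those nearest to Rarg, of smallest p among those above 0, were Fgl1, Drc1 and Pnlip, at 0.0829, 0.163 and 0.167. With 3 arrays such a ranking is coarse.

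Whether the genes pass depends on the handling of replicate 2 and of the pairing. With a dye term in the fit 5 of the 9 fell (Crabp1, Crabp2, Rarb, Stra6 and Rdh10) and 1 rose (Rarg), when 30.8% of all genes were called, and its error comes from replicates 1 and 3 alone. Without replicate 2 these 6 passed and Cyp26a1 with them, when 47.4% of all genes were called and genotype and dye could not be told apart. With the channels as unpaired samples Rarb (adjusted p = 0.0365) and Stra6 (adjusted p = 0.0351) passed, with 1.78% of genes called. With limma on the authors' deposited table no gene passed (3057 at an unadjusted p under 0.05), and the mean log2 ratios were smaller, −1.45 for Stra6, −1.19 for Rarb, −0.90 for Crabp1, −0.64 for Rdh10 and 0.89 for Rarg, with the same signs as in the fit reported.

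**Figure D4:**
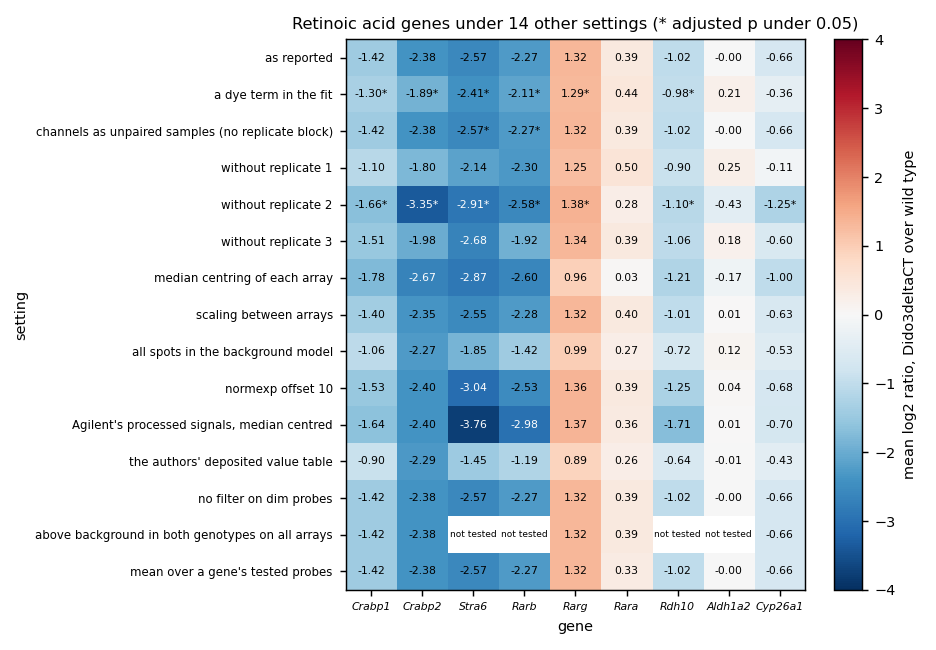
Mean log2 ratio of Dido3deltaCT over wild type for the 9 genes (columns) as reported and under 14 other settings (rows), with colour from blue (lower in the mutant) to red (higher) and an asterisk where the limma adjusted p is under 0.05. Signs of all genes but Aldh1a2 hold in every row in which the gene was tested (Stra6, Rarb, Rdh10 and Aldh1a2 were not tested in 1), and asterisks stand only in the rows with a dye term, without replicate 2 and with unpaired channels.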

How the data were processed

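Amplified RNA of a mutant and a wild type sample, labelled with Cy3 and Cy5, shared each of 3 arrays, per the labels' protocols. The scanner output is from Agilent Feature Extraction 10.7.3.1, per the file headers, and holds mean and local background intensity per spot, processed intensity and flags, with probe positions on mm9. The authors' deposited table holds log2 ratios, which the scanner values show to be mutant over wild type. Its column medians were −0.04, 0.01 and −0.01, and its centring is unknown. Its columns for replicates 1, 2 and 3 correlated at 0.771, 0.987 and 0.842 with the scanner ratios of their own arrays, while those of replicates 1 and 3 correlated at 0.916 and 0.983 with each other's array. All 3 columns entered the limma fit on this table, whose means and p-values do not depend on the order of the columns. For its making, the submitters' processing notes name limma; its settings are not given here.

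With R 4.3.3 and limma 3.58.1, mean signals were background-corrected (normexp, offset 50) and normalised by loess within arrays, giving 1377 control spots weight 0. There were 7 spots of replicate 3 with a background flag and over 10 times the median background: they took the median and were left out, like outlier spots. Levels come from Aquantile scaling. The filter kept 19140 probes with all 3 ratios that 1 genotype or both showed well above background on every array, and the brightest per gene was tested against 0 (lmFit, eBayes, Benjamini-Hochberg over 15426 genes; 2 residual and 3.04 prior degrees of freedom). Of 39429 probes, 67.9% took symbols by accession from the GRCm38.p6 table. Each array is a pair, so the fit is paired. The 3 arrays share 1 slide and 1 scan date, so no batch was tested. Their number limits precision. Named were all members, called pathway genes, the 5 smallest adjusted p in each direction per list, and 3 nearest genes. Members and lists were chosen with earlier results of these data known. 1 gene of the response list is counted but not reported here. Figures used matplotlib 3.10.9.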

Additional observations from a re-analysis of the deposited data

How the results depend on the processing

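Counts of genes called higher and lower over all genes, 32 and 14 as reported, were 2449 and 2300 with a dye term, 4 and 3 with median centring, 179 and 96 with unpaired channels (no replicate block), 63 and 46 with scaling between arrays, 0 and 0 with all spots in the background model (1684 at an unadjusted p under 0.05), 114 and 74 with a normexp offset of 10, 239 and 139 with Agilent's processed signals, 0 and 0 in the authors' deposited table (3057 at an unadjusted p under 0.05), 1 and 1 with no filter on dim probes, 3 and 1 with both genotypes above background, and 67 and 36 with the mean over probes. With 1 replicate left out they ran from 3 to 3963 higher and from 2 to 3345 lower, the highest without replicate 2. Of the 9 genes 1 rose and 5 fell with a dye term, 0 rose and 2 fell with unpaired channels (no replicate block), and from 0 to 1 rose and from 0 to 6 fell with 1 replicate left out. Of the other pathway genes 2 rose and 9 fell with a dye term, 1 rose with Agilent's processed signals, and from 0 to 2 rose and from 0 to 11 fell with 1 replicate left out. Rbp4 did not pass with unpaired channels, median centring, all spots in the background model, the authors' table, no filter or both genotypes above background, each giving 0 lower. The median log2 ratio of the 9 genes ran from −1.64 to −0.64 over 14 alternatives. Aldh1a2 turned to 0.21 with a dye term, 0.0099 with scaling, 0.12 with all spots in the background model, 0.043 with an offset of 10 and 0.0076 with processed signals, and with 1 replicate left out ran from −0.43 to 0.25, with 0.18 without replicate 3. Median centring moved the median of all genes to −0.22, beside which Rara had 0.035. The share of calls that were higher in the mutant was 69.6% as reported, 57.8% with scaling, 57.1% with median centring and 51.6% with a dye term. The cause of these differences was not tested. Among genes above background in both genotypes 5 of the 9 were tested, so dim mutant signal limits Stra6, Rarb and Rdh10, and dim wild type signal Aldh1a2.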
